A study of Drosophila melanogaster with 3 samples.

Results

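Peaks at single, non-divergent promoters made up 1268 of the 3823 peaks (33.2%) in the set that the authors kept for reproducibility in chromatin immunoprecipitation and sequencing (ChIP-seq) of shaven (sv), a transcription factor of Drosophila. They were chosen by position: the summit, the base of highest signal in a peak, lay within 500 bp of the start of a protein-coding gene, and all coding starts within 500 bp lay on 1 strand. Another 891 summits (23.3%) lay within 500 bp of coding starts on both strands, at divergent promoter pairs, and 1664 (43.5%) had no coding start that close. Chromatin came from whole wandering third-instar larvae, males and females pooled, of a transgenic line that stably expresses the RD isoform of sv fused to GFP at its C-terminus. It was recovered per the sample descriptions with an antibody against GFP, although the antibody field names sv. All samples formed 1 group of 3 biological replicates, with no other genotype, stage or treatment. Chromatin of all tissues was pooled in each sample, so a peak carries no cell type. The labels do not name the promoter that drives the fusion. The peak signal is the authors' own value for each peak and ranks peaks only within 1 list. Read depths are unknown here, because the files hold peaks and not reads.

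sv is the fly Pax2/5/8 gene. Pax proteins bind DNA through a paired domain, and sv is known for specifying cone and primary pigment cells in the eye and the shaft of sensory bristles. A fly core promoter is the stretch around a transcription start on which RNA polymerase II is loaded. Promoters of housekeeping genes are often divergent and carry short motifs such as the DREF site, motif 1 (bound by M1BP) and motif 7 (also known as the Ohler motifs). Promoters of developmentally regulated genes more often stand alone, carry a TATA box or an initiator, and belong to long genes with several alternative starts.

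The sequences at the summits differed in base composition and in short promoter motifs, and 11 windows of 101 bases centred on the summit show both. All are read 5' to 3' on the strand of the nearest gene from the NCBI Release 6 assembly, which shares its coordinates with the dm6 build of the files. They are in lower case, with capitals marking TATCGATA (the DREF site), GGTCACAC (the motif 1 core), CATCNCTA (motif 7) or CANCNCTG (a pattern with no factor assigned here), on either strand. Motif 7 was sought only as CATCNCTA. Some copies of CANCNCTG, such as those at kibra and cbt, differ from CATCNCTA only in the last letter. The pattern may therefore include variants of motif 7, and the shares of motif 7 hold for CATCNCTA alone. The first 4 are among the strongest peaks and hold none of the 4 motifs. The other 7 were among the 3 highest-ranked carriers of a motif in windows that touched no annotated exon.
CG14100 (chr3L:19590573-19590673, minus strand): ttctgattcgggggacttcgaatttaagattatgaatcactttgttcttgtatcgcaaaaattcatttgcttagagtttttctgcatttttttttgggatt
Ugalt (chrX:2703855-2703955, minus strand): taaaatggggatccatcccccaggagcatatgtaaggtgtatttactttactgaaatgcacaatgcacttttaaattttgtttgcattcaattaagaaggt
CG31145 (chr3R:23669772-23669872, minus strand): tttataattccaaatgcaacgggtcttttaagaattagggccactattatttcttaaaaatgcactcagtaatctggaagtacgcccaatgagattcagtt
ph-p (chrX:2137281-2137381, minus strand): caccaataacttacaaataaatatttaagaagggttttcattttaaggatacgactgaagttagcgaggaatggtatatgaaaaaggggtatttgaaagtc
kibra (chr3R:14724301-14724401, minus strand): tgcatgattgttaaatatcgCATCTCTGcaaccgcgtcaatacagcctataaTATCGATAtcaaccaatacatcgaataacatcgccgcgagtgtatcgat
Rnp4F (chrX:5322721-5322821, minus strand): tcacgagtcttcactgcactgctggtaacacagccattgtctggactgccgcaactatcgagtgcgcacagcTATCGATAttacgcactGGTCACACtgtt
jigr1 (chr3R:25647088-25647188, plus strand): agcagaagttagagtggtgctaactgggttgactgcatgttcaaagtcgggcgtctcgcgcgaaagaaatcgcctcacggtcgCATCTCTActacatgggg
tin (chr3R:21378733-21378833, plus strand): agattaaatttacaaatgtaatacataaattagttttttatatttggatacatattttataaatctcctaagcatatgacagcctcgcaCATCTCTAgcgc
cbt (chr2L:480000-480100, minus strand): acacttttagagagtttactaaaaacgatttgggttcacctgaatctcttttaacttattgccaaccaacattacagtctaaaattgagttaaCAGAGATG
RpL23A (chr3L:1668698-1668798, minus strand): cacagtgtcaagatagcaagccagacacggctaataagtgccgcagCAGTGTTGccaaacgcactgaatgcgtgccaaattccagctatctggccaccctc
Pi3K21B (chr2L:297758-297858, plus strand): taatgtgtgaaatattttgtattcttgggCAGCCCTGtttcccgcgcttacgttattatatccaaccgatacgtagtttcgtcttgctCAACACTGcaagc
The windows of the 4 strong peaks had 31.7% to 34.7% G + C. Those of the 7 motif carriers spanned that range, from 27.7% at tin and 32.7% at cbt to 53.5% at jigr1 and RpL23A. tin encodes the homeodomain protein of the heart, and cbt a zinc finger transcription factor. kibra, a regulator of the Hippo pathway, carried a DREF site and 1 copy of CANCNCTG at a peak of rank 2037 in the pooled list. Rnp4F, an RNA-binding protein, carried a DREF site and the motif 1 core at rank 2227. RpL23A, a protein of the large ribosomal subunit, carried CANCNCTG at rank 202, and Pi3K21B, the regulatory subunit of phosphatidylinositol 3-kinase, carried it at 2 places at rank 366.

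The strongest single promoter peak lay 99 bp upstream of CG14100. Its pooled signal was 1499, against a median of 114.5 and a lowest value of 72.6 over the 1268 peaks, and it was ranked 2 in the pooled list and in each replicate list. Its own signals were 645.8, 378.3 and 483.2 in replicates 1, 2 and 3. The next was Ugalt, a transporter of UDP-galactose into the Golgi, with a summit 53 bp upstream and ranks 8, 6 and 3. CG1888 (ranks 9, 12 and 8) and px (ranks 6, 18 and 12) followed, the latter the plexus gene of wing vein patterning. CG31145 had ranks 7, 10 and 29, and PNPase, the mitochondrial polynucleotide phosphorylase, had 14, 20 and 11. ph-p, which encodes the Polycomb group protein Polyhomeotic and has a close tandem copy, had ranks 16, 14 and 22 with its summit at -476 bp (negative positions are upstream of the start). The mitochondrial ribosomal protein gene mRpL41 had ranks 15, 32 and 16.

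The other 12 of the 20 strongest were gish (a casein kinase I), the transporter gene MFS10, Tina-1, CG18549, Fhos (a formin), Sox14 (a transcription factor of the ecdysone response), CG13921, larp (an RNA-binding protein), GstE13 (a glutathione S-transferase), CG46429, Gapdh2 (a glycolytic enzyme) and Atf3 (a bZIP transcription factor). All 20 were within rank 65 in every replicate. In 19 of them the summit lay upstream of the start, and in 17 between 50 and 300 bp upstream. GstE13 was the exception, with its summit 62 bp downstream and ranks 44, 40 and 36. Of the 100 strongest peaks of the whole set, 40 were at single promoters, 32 at divergent pairs and 28 away from coding starts.

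**Figure D1:**
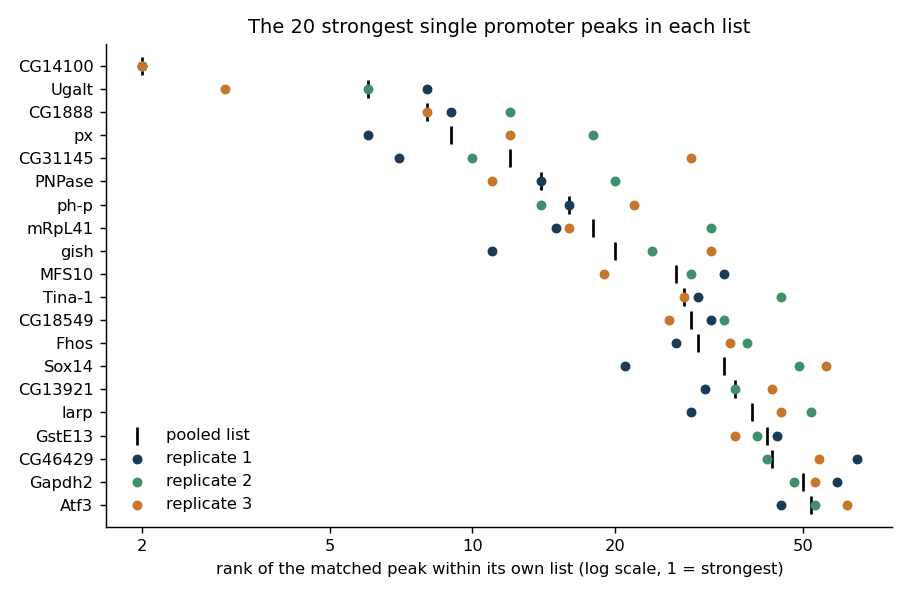
Rank of the 20 strongest single promoter peaks in the authors' pooled list (bars) and in each of the 3 replicate lists (points), on a log axis where 1 is the strongest. No point lies beyond rank 65, and CG14100 is at rank 2 in all 4 lists.

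The class was a similar part of each replicate. Among as many of the strongest peaks of each replicate as the kept set holds (3823), single promoters took 31.9%, 34.0% and 35.4% (33.8% ± 1.77, SD, n = 3), and divergent pairs 22.1%, 22.3% and 22.2%. Single promoters exceeded divergent pairs by 11.6 ± 1.71 percentage points and were higher in 3 of 3 replicates. A two-sided exact sign-flip permutation test gave p = 0.25 (0.3 with Benjamini-Hochberg adjustment over 6 comparisons of classes), which is the smallest value that 3 replicates allow, so no comparison over replicates here could pass 0.05. Of the 13945 protein-coding genes, 10738 have a start with no coding start of the other strand within 500 bp. The class shares were not set against this, so their difference shows no preference for either class. Per gene the order was reversed in the kept set. There 8.23% of genes had a start within 500 bp of a single promoter summit and 11.6% of a divergent one, which counts for genes on both strands. The labels name no batch.

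A kept summit was counted as found in a replicate when one of the 3823 strongest peaks of that replicate had its summit within 200 bp. The kept set was itself built from these replicates, so this describes how evenly they contribute and is no independent check. Of the 1268 single promoter peaks, 791 (62.4%) were found in all 3 replicates, against 60.6% of all kept peaks, 64.4% of divergent and 57.1% of the remaining ones. A further 329 were found in 2 replicates, 141 in 1 and 7 in none. Per replicate, 84.3%, 82.7% and 83.2% were found, and at divergent pairs 86.3%, 83.7% and 83.5%. The difference of -1.13 ± 0.85 percentage points was negative in 3 of 3 replicates (exact sign-flip permutation test, two-sided p = 0.25, adjusted 0.3). Against the peaks away from coding starts it was -2.29 in replicate 1 and 4.10 and 6.22 in the other two, so replicate 1 went the opposite way (p = 0.5 by the same exact test). The ranks of the single promoter peaks correlated between replicates with Spearman's rho of 0.668 (1 and 2), 0.644 (1 and 3) and 0.667 (2 and 3), over the 1233 to 1248 peaks matched in both lists. All peaks of a list come from the same larvae, so these are descriptions.

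Some peaks of the stronger part of the set held very different ranks in the 3 replicates. The summit 183 bp upstream of melt, a gene of insulin signalling, was ranked 17768, 2894 and 588. CG7737 was ranked 1432, 152 and 3176. A second summit upstream of CG31145 had ranks 595, 8399 and 29, but it lies close to the first, and in replicate 3 both were matched to the same peak. Such neighbours were few: 96 of the 1268 summits lay within 250 bp of a stronger kept summit. Without them 723 of 1172 (61.7%) were found in all 3 replicates, an alternative chosen after the data were seen.

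Summits lay mostly upstream of the start. The median position was 136 bp upstream (interquartile range 255 to 43 bp upstream, written as -136, -255 and -43), with 1080 summits (85.2%) upstream, 187 downstream and 1 on the start itself. In the single promoter peaks of each replicate the median was -151, -117 and -104 bp, with 86.5%, 80.7% and 80.5% upstream (82.5% ± 3.39, SD, n = 3). The summit on the start was that of Irp-1A, an iron regulatory protein. alc, the beta subunit of the AMP-activated kinase, and CG1907 had theirs 1 bp away. At the other end, JIL-1, a histone H3 kinase, had a summit at -500, and SREBP, the regulator of lipid synthesis, and Eip63F-1, a calcium-binding protein, had summits at 499 and 498 bp downstream. At the edge of the rule, 44 peaks lay 451 to 500 bp from the start with a median signal of 127.6, and 48 peaks just outside, at 501 to 550 bp, had a median of 112.5.

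Stronger peaks lay farther upstream. The 1268 peaks were split into 4 quartiles of 317 by pooled signal. From the strongest to the weakest, the median position was -175, -124, -130 and -103 bp, and the share of summits within 50 bp of the start was 8.83%, 18.6%, 18.0% and 25.2%. The same split within each replicate, by its own signal, was made after this pattern had been seen in the pooled list. The strongest quartile then had medians of -200, -159 and -164 bp and the weakest -128.5, -74 and -67 bp in replicates 1, 2 and 3. The ranges did not overlap, and the difference was -84.5 ± 12.8 bp, in the same direction in 3 of 3 replicates (exact sign-flip permutation test, two-sided p = 0.25, also after adjustment over 4 quantities). Finding in the replicates followed the signal, as it must in a set ranked by it: 98.7%, 90.9%, 48.0% and 12.0% of the 4 quartiles were found in all 3.

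**Figure D2:**
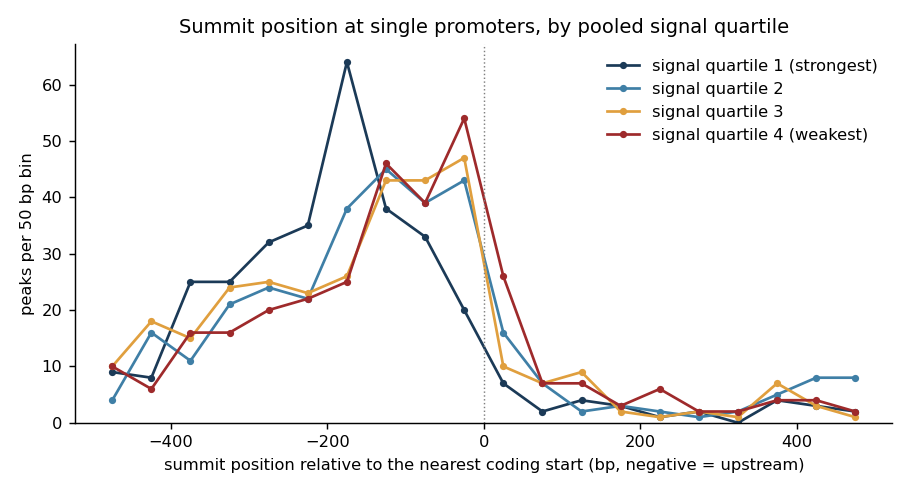
Number of single promoter summits per 50 bp bin against their position relative to the nearest coding start, for each quartile of pooled signal (317 peaks each). The strongest quartile peaks between 200 and 150 bp upstream, while the other 3 are highest between 150 bp upstream and the start.

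The strongest peaks were also the richest in A and T. The 101 bp windows at all single promoter summits had 37.4% G + C on average, against 42.3% in windows 1 kb upstream and 34.8% at divergent summits. By signal quartile the content was 33.1%, 37.9%, 38.4% and 39.96%. In the replicates the summits had 36.1%, 38.5% and 39.2%, which differed from their own upstream windows by -4.61 ± 1.42 percentage points and from the divergent summits by 2.74 ± 0.26, each in the same direction in 3 of 3 replicates (exact sign-flip permutation test, two-sided p = 0.25 for each). Within each replicate, the strongest quartile differed from the weakest by -5.35, -5.14 and -5.51 percentage points (exact sign-flip permutation test, p = 0.25). Because base composition changes along a promoter, part of this can move with position: at starts with a single promoter summit, G + C was 34.2% from 200 to 151 bp upstream and 47.9% in the last 50 bp before the start, and at promoters with no summit 37.98% and 41.6%. The share of the signal difference that goes with position was not tested.

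**Figure D3:**
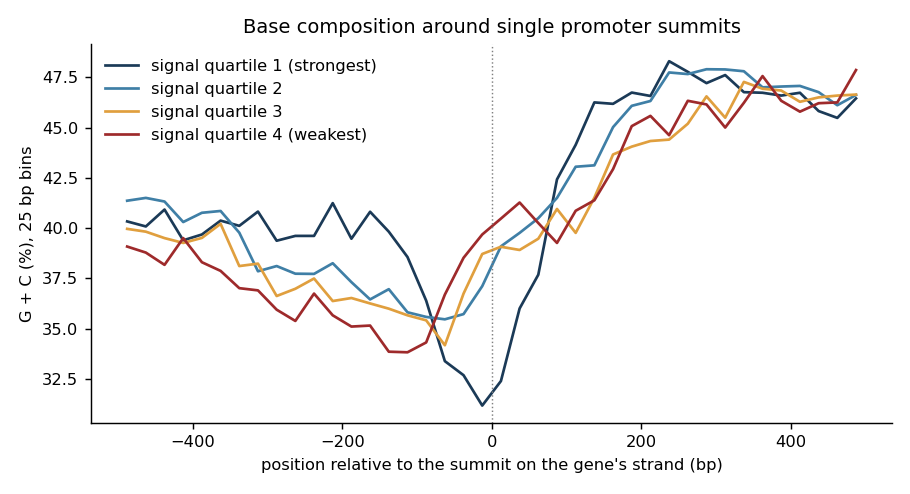
G + C content in 25 bp bins around single promoter summits, oriented along the gene, for each quartile of pooled signal. In the strongest quartile the content drops to 31.2% in the 25 bp before the summit, while in the weakest it is 39.7% there and lowest upstream of the summit.

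The DREF site, the motif 1 core and motif 7 were more frequent at the summits than beside them, and less frequent at the strongest quartile than at each of the other 3. Each motif was sought on both strands in the 101 bp window. The DREF site occurred at 30 of the 1268 summits (2.37%), against 0.33% of windows 1 kb upstream and 0.65% of windows placed 136 bp upstream of 5959 single promoters with no summit. The motif 1 core was also at 30 summits (2.37%, against 0.42% and 0.22%) and motif 7 at 41 (3.23%, against 0.67% and 0.54%). All 3 were more frequent at divergent summits, at 5.05%, 2.92% and 5.16%. CGATA, a short site of the insulator protein BEAF-32, which every DREF site also contains, was at 21.6% of single promoter summits, 13.1% of upstream windows and 29.1% of divergent summits. The replicates gave the same direction for each of the 4 motifs in 3 of 3. For the DREF site the shares were 2.78%, 3.40% and 3.71% at replicate summits and 0.26%, 0.49% and 0.39% upstream, a difference of 2.92 ± 0.40 percentage points. The differences were 1.83 ± 0.30 for the motif 1 core, 2.56 ± 0.51 for motif 7 and 9.55 ± 1.34 for CGATA. Each had a two-sided p of 0.25 by the exact sign-flip permutation test, and 0.3125 with Benjamini-Hochberg adjustment over 15 motifs.

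Words of 8 letters were also counted at the summits and at the promoters with no summit. Only those at 15 or more summits and at 3 or more of the promoters with no summit were kept. AACTATCG stood at 32 summits (2.52%) and at 0.17% of the promoters with none. It shares the letters TATCG with the DREF site. CAACACTG (42 summits, 3.31% against 0.30%) and CAGCACTG (32 summits, 2.52% against 0.23%) differed from each other by 1 letter and were joined with others in the pattern CANCNCTG after these counts were seen. The pattern was at 159 summits (12.5%), at 2.75% of upstream windows, at 3.14% of promoters with no summit and at 16.5% of divergent summits. In the replicates it was at 10.3%, 11.9% and 13.4% of summits and 3.22%, 4.13% and 3.31% of upstream windows. It was chosen from the same peaks, so these values describe it and support nothing.

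The quartiles of signal differed in the joint share of 3 of these motifs, a grouping made after the data were seen. At least 1 of the DREF site, the motif 1 core and motif 7 was present at 2.52% of the strongest quartile and at 8.20%, 9.15% and 10.1% of the following 3. Over all 1268 peaks the share was 7.49%, against 12.2% at divergent summits and 1.39% at promoters with no summit. It was 5.85% at 4806 single promoter summits that the authors listed but did not keep, all over 1000 bp from any kept summit. Within the replicates the strongest quartile had 2.30%, 3.69% and 2.66%, and the weakest 9.87%, 8.00% and 10.7%. The difference was -6.62 ± 2.01 percentage points and negative in 3 of 3 (exact sign-flip permutation test, two-sided p = 0.25). CANCNCTG was at 5.99% of the strongest quartile and 15.5%, 13.9% and 14.8% of the others. From the strongest quartile to the weakest, CGATA was at 12.3%, 25.2%, 20.8% and 28.1%. In the same order CAGCTG, an E-box, was at 1.89%, 4.73%, 8.20% and 8.52%. CACGTG ran the other way, at 2.21%, 1.58%, 1.26% and 0.946%. So did the motif 6 core, GGTATTT, another motif of housekeeping promoters, at 5.05%, 4.10%, 3.79% and 2.52%. GGTATTT was at 3.14% of divergent summits against 3.86% of single promoter summits. Position moved with this too: the median summit position was -37 bp for the 30 carriers of the DREF site, -47 for the motif 1 core, -56 for motif 7 and -52 for CANCNCTG, and between -139 and -152 for the peaks without each. Its part in the difference was not tested.

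**Figure D4:**
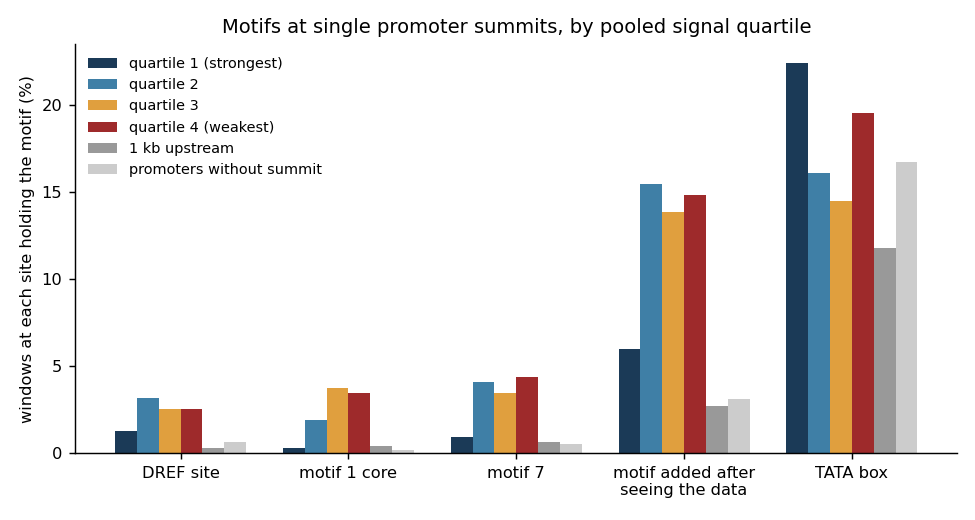
Share of 101 bp windows that hold a motif, at single promoter summits by quartile of pooled signal, 1 kb upstream of all the summits, and 136 bp upstream of promoters with no summit. The bars of the strongest quartile are the lowest of the 4 for the DREF site, the motif 1 core, motif 7 and the added pattern CANCNCTG, and the highest for the TATA box.

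TATAAA, the TATA box, was at 18.1% of single promoter summits, against 11.8% upstream, 16.8% at promoters with no summit and 21.6% at divergent summits. In the replicates it exceeded the upstream windows by 8.09, 3.97 and 3.71 percentage points (5.26 ± 2.46, higher in 3 of 3, exact sign-flip permutation test, two-sided p = 0.25, adjusted 0.3125). From the strongest quartile to the weakest it was at 22.4%, 16.1%, 14.5% and 19.6%. Its letters are all A and T, and its carriers lay at a median of -172.5 bp, upstream of where a TATA box works. TCAGT, an initiator core, was at 17.9% of summits and 15.6% upstream. GTCACGC, a core of paired-domain sites taken from other Pax proteins, was at 5 summits (0.39%), 0.50% of upstream windows and 0.32% of promoters with no summit, and in the replicates differed from the upstream windows by -0.13 ± 0.09 percentage points. The letters of other sites that the paired domain may bind were not sought, and a count of 7 fixed letters says nothing about binding. GAGAG, read by GAGA factor, was at 12.4% of summits, 10.5% upstream and 13.5% downstream, so its direction turned with the side. Of the other motifs sought, GGTATTT was at 3.86% of summits and 1.83% upstream, CAGCTG (an E-box) at 5.84% and 4.75%, and GATAA (read by GATA factors) at 23.4% and 19.3%. For the remaining 4 the share was lower at summits than upstream, at 1.81% and 2.75% for TGACGT (a cAMP response element), 1.498% and 1.83% for CACGTG, 5.13% and 6.00% for TTCTTTT and 1.58% and 1.92% for CTCTTTC.

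The motifs were also sought over a fixed stretch from 200 bp upstream to 50 bp downstream of the start. Where a gene had a single promoter summit, the start read was that nearest to the strongest such summit. Elsewhere it was the most upstream non-divergent start of the gene. The groups therefore differed in how the start was chosen, and the effect of this on the shares was not tested. The DREF site was at 7.99% of 1101 starts with a single promoter summit, 10.5% of 3015 starts with only a summit that was not kept, 2.95% of starts with none and 5.88% of all 10738 single promoters. The motif 1 core was at 7.45%, 8.42%, 2.13% and 4.73%, motif 7 at 7.63%, 5.84%, 2.06% and 3.88%, and CANCNCTG at 25.0%, 17.6%, 9.03% and 13.6%. GAGAG was at 40.2%, 32.4%, 26.3% and 29.9%, and CAGCTG at 19.8%, 16.5%, 11.4% and 13.8%. The TATA box turned direction in this stretch, at 32.0% of starts with a single promoter summit, 36.8% of those with only a summit that was not kept, 41.5% of starts with none and 38.5% of all. The other motifs were also read there, and GATAA was at 43.2% of starts with a summit and 46.6% of starts with none. For the DREF site and the motif 1 core, starts with a summit that was not kept therefore carried the motif at least as often as those with a kept one.

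The highest-ranked carrier of each motif outside the arm 2R shows the range of the genes. eEF1gamma, a subunit of elongation factor 1, carried the DREF site at rank 260, RpL37A the motif 1 core at rank 676 and jigr1 motif 7 at rank 501. Their summits lay at -18, -7 and -108 bp. cbt carried CANCNCTG at rank 181 and -362 bp. CG14100 carried CGATA, CG31145 the TATA box, ph-p GGTATTT, Ugalt TCAGT, gish TTCTTTT and Atf3 GATAA. Hpf1 (rank 86) carried CAGCTG, nebu (rank 83) GAGAG, nrv1 (rank 192) TGACGT, E23 (rank 219) CTCTTTC, Alp12 (rank 249) CACGTG and Coq7 (rank 753) GTCACGC.

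The genes were longer and had more starts than other genes. The 1268 summits had 1112 nearest genes, with a median span of 5364.5 bp, against 2612 bp for the nearest genes of divergent summits and 2056 bp for 9265 genes with a single, non-divergent start and no kept summit within 500 bp of it. They had 2.14 coding starts on average, against 1.59 and 1.36. A longer gene with more starts offers more room for a summit to fall near one, so the comparison is a description. Of 751 summits at genes with several coding starts, 416 had a start inside the gene as the nearest. Over all 1268, the 416 at such internal starts had a median signal of 123.7 and a median position of -176 bp, and the 852 at the most upstream start of their gene 111.0 and -122.5 bp. By place, 652 summits lay outside coding genes, 489 inside their own gene, 80 inside another gene and 47 inside both.

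Although no coding start on the other strand lay within 500 bp, 152 summits had one at 501 to 1000 bp. The gene next upstream ran in the same direction for 736 summits and in the opposite direction for 532. A non-coding gene started within 500 bp on the opposite strand at 66. The summits were spread over the arms as 226 on X, 234 on 2L, 249 on 2R, 251 on 3L, 302 on 3R and 6 on chromosome 4, where sv itself lies. No single promoter summit had sv as its nearest gene.

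Several genes held more than 1 of the peaks: 120 had 2, and 15 had 3 or more. These are counts of summits and not of separate starts. Of the 1268 summits, 172 shared their nearest start with another, and the 1268 had 1182 nearest starts. At Fkbp14 the summits at -91 and -301 bp lay in peaks with the same first and last base. Rtnl1, a reticulon of the endoplasmic reticulum, had 5, with signals from 501.2 down to 88.5, and each was found in all 3 replicates. dnc, the cAMP phosphodiesterase of learning, had 4 (signals 321.6 to 80.65), as did spi, the Spitz ligand of the EGF receptor (356.6 to 91.6), Ptpmeg2, a tyrosine phosphatase (311.1 to 73.4), and Moe, the actin linker moesin (184.5 to 76.07). The genes with 3 were CAP, CG14968, CHES-1-like, Eip63F-1, Fkbp14, RapGAP1, larp, mtd, psq and shep. Nearby summits of 1 gene can match 1 replicate peak, as at CAP, where 2 of the summits shared a rank of 835 in replicate 2.

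Among genes of known function, single promoter peaks were at a larger share of cytosolic ribosomal protein, translation factor and insulator protein genes, and of regulators of sensory organ and eye development, than of all genes. Over all 13945 protein-coding genes, 8.23% had a start within 500 bp of a single promoter summit and 11.6% of a divergent one. When 1 replicate was left out, so that only peaks found in both others remained, the first share was 5.84% to 5.91%. Of 86 cytosolic ribosomal protein genes, 26 (30.2%) had a single promoter peak and 32 a divergent one. The split depends on the width: within 200 bp of the start 45 had a single promoter peak (52.3%, against 8.68% of all genes). The strongest were RpL23A (signal 339.5, ranks 407, 145 and 171), RpL11 (248.6, ranks 484, 513 and 403) and RpL24 (246.4, ranks 603, 294 and 468). Their summits lay close to the start: the median over the 26 was -28 bp, from -136 to 107, and 22 lay within 50 bp, against 17.7% of all single promoter summits. In all 3 replicates 22 of the 26 were found. Translation factors had 12 of 53 (22.6%), with a median position of -55 bp, led by eIF6 (518.4), eEF1gamma (309.7) and eIF3c (188.1), and 7 with a divergent peak.

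Regulators of sensory organs, the eye and Notch signalling had 9 of 34 with a single promoter peak (26.5%) and none with a divergent one. Within 200 bp of the start there were 5 (14.7%, against 8.68% of all genes), and in the 1911 strongest peaks of the kept set 5 (against 4.30%). Without replicates 1, 2 and 3 in turn there were 6, 6 and 8 (17.6%, 17.6% and 23.5%, against 5.91%, 5.91% and 5.84%). The listed names Dl and cut had no match. elav, the RNA-binding protein of neurons, had the strongest (signal 496.9, ranks 57, 159 and 86), followed by spi (356.6, ranks 263, 126 and 178) and numb, the inhibitor of Notch (313.7, ranks 257, 187 and 346). The other 6 were neur, a ubiquitin ligase of the Delta pathway (181.5), aos, an inhibitor of the EGF receptor (139.7), so, a homeodomain protein of the eye (97.97), emc, an inhibitor of proneural proteins (82.4), da, their partner (80.63), and aop, an ETS repressor (76.46). The median position of the 9 was -200 bp, and 1 lay within 50 bp of the start. The 2 groups thus differed in where the summit lay, which was seen in the data and not tested.

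Apart from the insulator and cell cycle lists described below, the other lists had shares below the 8.23% of all genes or near it. How many genes of each list have a non-divergent start was not counted. Mitochondrial ribosomal proteins had 3 of 73 (mRpL41, mRpL4 and mRpL10) and 25 with a divergent peak. tRNA synthetases had 1 of 33 (AlaRS) and 10, proteasome subunits 1 of 48 (Rpn11) and 7, and Mediator subunits 1 of 25 (MED4) and 7. The respiratory chain and ATP synthase had 6 of 93 (6.45%, led by COX7AL2, ND-B17 and ND-B22) and 17 with a divergent peak. Without replicates 1, 2 and 3 in turn the 6 became 3, 1 and 2 (3.23%, 1.08% and 2.15%, against 5.91%, 5.91% and 5.84% of all genes). The vacuolar ATPase had 3 of 33 (Vha16-1, Vha13 and VhaM9.7-c) and 8, and RNA polymerases with general transcription factors 5 of 55 (9.09%, led by Taf4, Polr2F and TfIIA-S) and 14. Vesicle traffic genes had 10 of 120 (8.33%, led by Rab5, Syx4 and deltaCOP) and 36. The spliceosome list had 1 of 35 and 10, but that 1 was Prps, which the name pattern took in and which encodes a phosphoribosyl pyrophosphate synthetase. The low shares depend on the width. Within 200 bp of the start, tRNA synthetases had 12.1%, Mediator subunits 16%, the spliceosome list 14.3% and mitochondrial ribosomal proteins 12.3%. The respiratory chain list had 9.68% there. All these exceeded the 8.68% of all genes at that width, while proteasome subunits stayed at 2.08%.

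Insulator and interband proteins had 4 of 17 (23.5%) and 5 with a divergent peak. The 4 were Trl, the GAGA factor, with a signal of 208.4, the kinase JIL-1 with 148.7, BEAF-32 with 130 and pita with 97.49. Of the names on that list MSL1 and Zw5 had no match. Cell cycle regulators had 7 of 39 (17.9%, led by Dp, CycE and polo) and 7 with a divergent peak. Without replicates 1, 2 and 3 in turn the single promoter count was 4, 3 and 3 (10.3%, 7.69% and 7.69%, against 5.91%, 5.91% and 5.84% of all genes). In the 1911 strongest peaks it was 2 (5.13%, against 4.30% of all genes). Ecdysone response genes had 2 of 21, the transporter gene E23 (490.3, ranks 66, 112 and 110) and the nuclear receptor gene Eip75B (207.1), and 1 with a divergent peak, with Eip71CD and phm unmatched. None of 122 cuticle protein genes and none of 179 chemoreceptor genes had a single promoter peak, and 1 chemoreceptor gene had a divergent one.

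**Figure D5:**
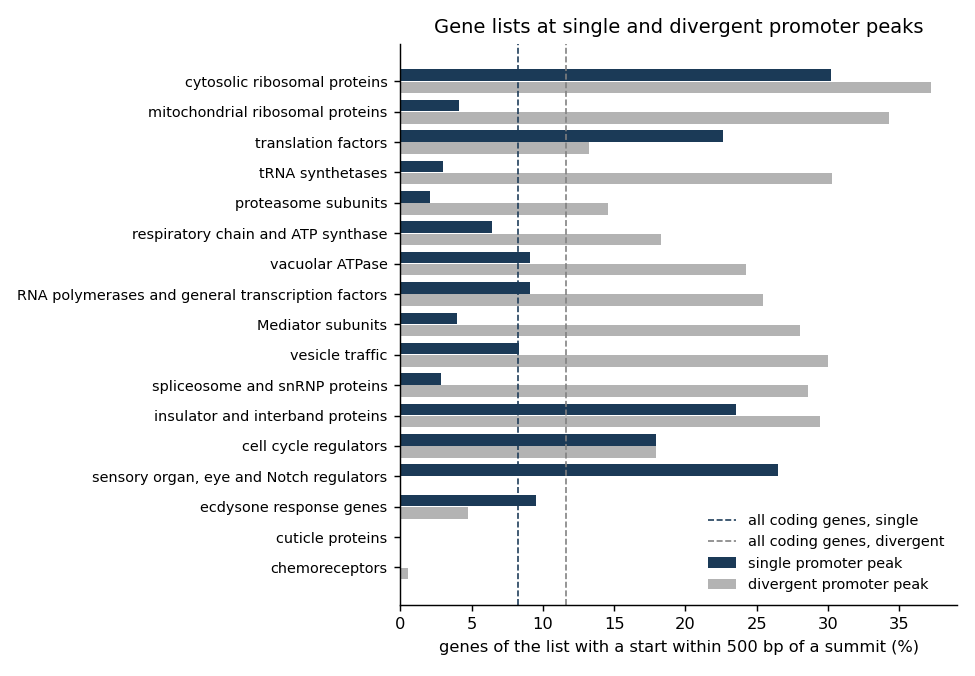
Share of the genes of each list with a coding start within 500 bp of a single promoter summit (dark) or a divergent promoter summit (grey), with dashed lines at 8.23% and 11.6%, the shares over all coding genes. Cytosolic ribosomal proteins, translation factors, insulator proteins, cell cycle regulators and sensory organ regulators exceed the dark line by the most. Without replicate 2 or 3 the cell cycle regulators drop to 7.69%, and all coding genes drop to 5.91% and 5.84%.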

How the data were processed

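Per the file manifests, the authors called a relaxed peak list for each replicate and for the pooled replicates against a shared control, and made the kept set from these by irreproducible discovery rate (IDR). The aligner, the peak caller and its settings, and the IDR threshold are not stated. The deposited signal of each peak is the authors' value, with no stated scale, and was used only to rank peaks within a list. The deposited summit offset gave the summit. The labels give sonication and a range of 200 to 800 in size. The dm3 lists were not used.

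Summits in dm6 were compared with coding starts of Ensembl release 115 (BDGP6.54) within 500 bp, and with replicate summits within 200 bp. All kept peaks were identical to the 3823 strongest of the pooled list. Windows of 101 bp came from the NCBI Release 6 genome. Windows 1 kb upstream were left out within 250 bp of another kept summit. Promoters with no summit had none in the pooled list within 500 bp and no kept one within 1000 bp of any start of the gene. Where summits that were not kept served as a comparison, only those over 1000 bp from any kept summit were used. Differences over the 3 replicates of 1 group were tested by a two-sided exact sign-flip permutation test with Benjamini-Hochberg adjustment, in Python 3.11.15 with numpy 2.4.6, pandas 2.3.3 and scipy 1.17.1. The functions were tested on simulated data.

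The peaks, gene lists and motifs were chosen with earlier results of these data known. The upstream side of the control window, the groups of promoters, the 8-letter words, CANCNCTG and the grouping of 3 motifs were chosen after seeing the data. Named genes were the 20 strongest peaks, up to 3 of each list, the highest-ranked carrier of each motif outside 2R, the 3 nearest and farthest summits, the 3 with the most different replicate ranks, and genes with 3 or more peaks. The genes of the printed sequences, the other members of the lists of sensory organ regulators and insulator proteins, and Prps were named after their values were seen. Alternatives were promoter widths of 200 and 1000 bp, other starts, distances, numbers of peaks and windows, and leaving out each replicate.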

Additional observations from a re-analysis of the deposited data

How the results depend on the processing

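No paired analysis was possible because all samples form 1 group. A promoter width of 200 bp gave a median position of -76 bp, a signal of 0.831 of that at divergent pairs (0.932 at 500 bp), 60.7% of peaks found in all 3 replicates (62.4% at 500 bp) and a class share in the replicates of 31.6% (33.8%). With 1000 bp these were 61.2% found and 37.7%, with 36.9% of the kept set in the class and 79.4% of its summits upstream. Measured from the most upstream start of a gene within the width, 80.4% were upstream. In the 1911 strongest kept peaks the signal ratio turned to 1.05, so that single promoters were above divergent pairs. There 52 listed genes had a single promoter peak in place of 91, and over all genes 600 in place of 1147. The share found in all 3 replicates was 37.1% among the 2000 strongest replicate peaks, 96.8% in the whole relaxed lists, 52.3% within 100 bp and 65.9% within 500 bp, and the class share in the whole lists was 21.6%. Leaving out 1 replicate gave 70.8% to 71.2% found in both others and signal ratios of 0.951 to 0.981. Among the single gene lists, translation factors went from 12 to 5 genes and vesicle traffic from 10 to 5 in the 1911 strongest peaks. These 5 were 9.43% and 4.17% of their lists, where the share over all genes fell from 8.23% to 4.30%. Mitochondrial ribosomal proteins went from 3 to 9 at 200 bp, which was 12.3% against 8.68% of all genes. At the replicates' own summits, the differences of the DREF site, CGATA, the motif 1 core and motif 7 kept their direction under every alternative. So did CANCNCTG, but it was chosen from these peaks, so its direction supports nothing. The smallest was 0.25 percentage points for the motif 1 core against summits that were listed but not kept. At the kept summits themselves the DREF site was no more frequent than at those, at 2.366% and 2.372%. CGATA (21.6% and 17.9%), the motif 1 core (2.366% and 1.935%) and motif 7 (3.23% and 1.89%) were more frequent at the kept ones. For the replicates' summits against those not kept, the sign turned for CACGTG (0.44), CAGCTG (-0.45), GAGAG (-2.08), TTCTTTT (0.65) and TCAGT (-0.97). Against windows 1 kb downstream, added after seeing the data, it turned for CACGTG (0.055), TGACGT (0.067) and GAGAG (-0.99). With 100 bp on each side it turned for TTCTTTT (0.20), CTCTTTC (0.91) and GTCACGC (0.27), which also turned in the stronger peaks of each replicate (0.10). Without 1 replicate, CTCTTTC ranged from -0.30 to 0.12 and turned without replicate 1. The causes were not tested. Read depth is unknown, and 3 replicates of 1 group allow no p under 0.25.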
